A study of Drosophila melanogaster with 4 samples.

Results

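The pair-rule genes and engrailed are the 10 *Drosophila melanogaster* genes *eve*, *ftz*, *h*, *run*, *odd*, *prd*, *slp1*, *slp2*, *opa* and *en*. They were found on a two-colour Agilent oligonucleotide array by the CG number in each non-control probe's identifier, which gave 14 of the 32162 distinct probes and 10 of the 25089 genes and unnamed transcripts that the probes represent. On each of 4 arrays, RNA from whole embryos homozygous for ectopic mir-3 expression (mir-3 encodes a microRNA) was set against wild-type embryo RNA labelled with a different dye. Both genotypes had the w1118 background, a white-eyed laboratory strain, and both were taken 6 to 8 h after egg laying from 2 h collections kept at 25 °C. The sources used here do not give the promoter or driver behind the mir-3 expression. There were 3 biological replicates, and replicate 1 was hybridized again with the dyes exchanged. Cy3 marked the mir-3 ectopic RNA on 3 arrays and Cy5 marked it on that dye swap.

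Pair-rule genes divide the blastoderm of the fly into repeated units. Gap gene products switch several of them on in stripes, and the pair-rule genes refine one another's patterns. The resulting pattern sets the boundaries at which segment polarity genes such as *en* and *wg* are expressed. They encode transcription factors of several families: *eve* and *ftz* homeodomain proteins, *h* a basic helix-loop-helix repressor, *run* a Runx protein, *odd* and *opa* zinc finger proteins, *prd* a protein with a paired domain and a homeodomain, and *slp1* and *slp2* forkhead proteins. By the age sampled here the early stripes have given way to later expression in segmental epidermis, nervous system and mesoderm. *en*, a homeodomain gene, marks the posterior compartment of every segment.

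All 14 probes were well above background in both genotypes on 4 of 4 arrays, with 0 saturated spots on any array. Of all non-control spots, the share well above background was 57.6% to 64.7% for mir-3 ectopic RNA and 59.1% to 66.1% for wild-type RNA. Median Cy3 signals were 59 to 89 against backgrounds of 20 to 26, and median Cy5 signals 104 to 142 against 46.5 to 53. The number of arrays limits the precision. After the arrays were turned the same way, their ratios over 14852 genes correlated at Pearson's r of 0.941 to 0.945 among the arrays of the same dye orientation and at 0.752 to 0.800 with the dye swap. Genes are not independent replicates.

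Ratios are given as log2 of the mir-3 ectopic signal over that of wild type, with the direction taken from the labelled dyes; were the dyes labelled the wrong way round, each sign would turn. The authors' value table has the opposite sign, as wild type over mir-3 ectopic. In mir-3 ectopic embryos *h*, *en*, *odd* and *run* were lower, *prd* was higher, and *eve*, *ftz*, *slp1*, *slp2* and *opa* did not pass the test. That test was limma's moderated test of the 3 replicate ratios against 0, with Benjamini-Hochberg adjustment over 14854 genes and unnamed transcripts and a threshold of 0.05. Over the whole array it called 24.3% higher and 24.5% lower, 48.8% in either direction, so 5 of 10 members is close to the background share. The member ratios ran from -0.26 to 0.39 with a median of -0.03 and a median absolute size of 0.14, beside a median of -0.00 and a median absolute size of 0.14 over all genes tested. The labels call the replicates independently isolated biological replicates. Whole embryos were used, so a gene active in fewer cells and a gene with less RNA per cell cannot be told apart.

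**Figure D1:**
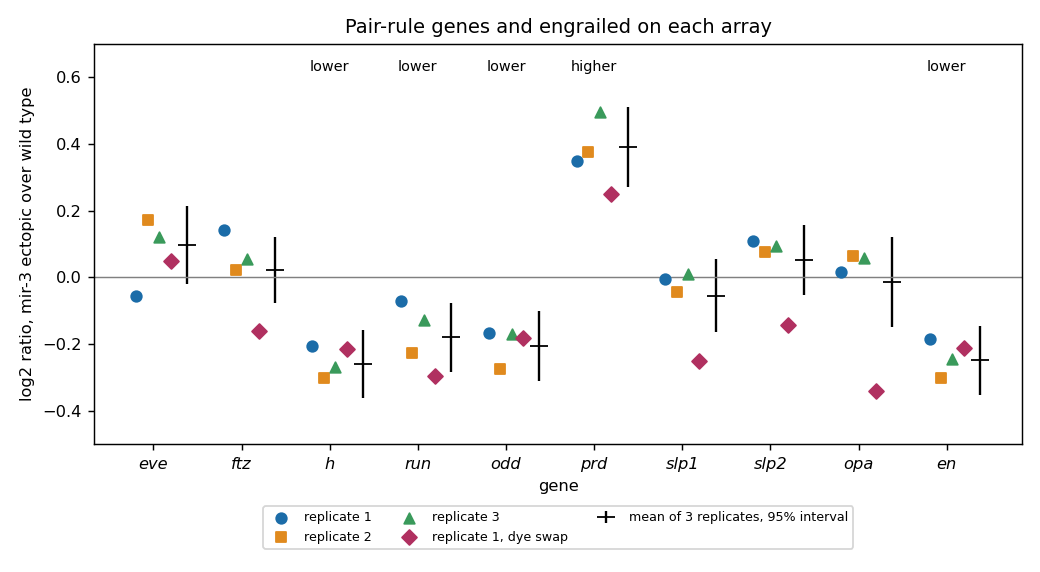
Log2 ratio of signals, mir-3 ectopic over wild type (vertical axis), for each of the 10 genes (horizontal axis), with a coloured point for each array and a black bar for the mean of 3 replicates and its 95% interval. The points of *h*, *run*, *odd* and *en* lie below 0 and those of *prd* above 0 on all 4 arrays; those of *ftz*, *slp2* and *opa* lie above 0 on 3 arrays and below 0 on the dye swap.

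Hairy, Even-skipped and Runt stand early in the pair-rule hierarchy, reading gap gene inputs through stripe-specific enhancers. *h* (CG6494, listed as *hry* in RefSeq) encodes a repressor that recruits Groucho. Its normalized log2 signal in wild-type embryos was 11.91, 11.63, 11.44 and 11.82 in replicates 1, 2 and 3 and the dye swap. In mir-3 ectopic embryos it was 11.70, 11.33, 11.17 and 11.60. The mir-3 ectopic signal was the lower on every array, although the ranges of the genotypes across the arrays overlapped. The ratio was -0.26 ± 0.05 (SD, n = 3), or 1.20-fold lower, with a limma adjusted p of 0.0025, and 26.7% of all genes tested had a larger absolute ratio.

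*run* (CG1849) encodes the founding Runx transcription factor, which works with the partner proteins Brother and Big brother. Its ratio was -0.07 on the array of replicate 1, -0.23 in replicate 2, -0.13 in replicate 3 and -0.30 on the dye swap, with a mean of -0.18 ± 0.05 (SD, n = 3) and a limma adjusted p of 0.012. The average of its 2 probes was thus lower on 4 of 4 arrays, but the probes gave unlike ratios. The probe with a single spot was at -0.31 (limma adjusted p 0.0032 over all probes) and the probe printed in duplicate at -0.05 (0.46). The latter was at -0.03, -0.05 and 0.06 on the arrays of replicates 1, 2 and 3 and at -0.32 on the dye swap. The single-spot probe gave wild-type signals of 10.01 to 10.26 and mir-3 ectopic signals of 9.72 to 9.89, and it was the 1 of 14 member probes whose genotypes did not overlap, beside 11.2% of all kept probes.

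*eve* (CG2328) encodes a homeodomain repressor that is later active in neurons, in dorsal mesoderm that forms pericardial cells and muscle, and at the posterior end. It rests on 1 probe with a single spot of low signal. Its raw wild-type signals were 147, 131, 98.5 and 77 on replicates 1, 2 and 3 and the dye swap, against local backgrounds of 50.5, 52, 45 and 23. The raw mir-3 ectopic signals were 76, 68, 73 and 134, against 24, 21, 19 and 49. The first 3 of these lay near the median Cy3 signals of their arrays, 76.25, 59 and 66. The log2 ratio was -0.06 on the array of replicate 1, 0.17 in replicate 2, 0.12 in replicate 3 and 0.05 on the dye swap. With a mean of 0.10 ± 0.09 (SD, n = 3) and a 95% interval of -0.02 to 0.21 it did not pass (limma adjusted p 0.15). Within the slide that held replicates 2 and 3 it passed as higher at 0.15 (limma adjusted p 0.028). Both arrays of that slide had Cy3 on the mir-3 ectopic RNA, so genotype and dye cannot be told apart in that fit. The other slide held only replicate 1 and its dye swap, so no test could be made there.

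The next members are *ftz* and *odd*. *ftz* (CG2047), the homeodomain gene next to *Scr* in the Antennapedia complex, was at 0.14, 0.02 and 0.06 on the arrays of replicates 1, 2 and 3 and at -0.16 on the dye swap. Its mean was 0.02 ± 0.03 (SD, n = 3), with a 95% interval of -0.08 to 0.12 (limma adjusted p 0.68). The array of replicate 1 and its dye swap, which carried the same 2 RNA samples, thus lay on opposite sides of 0. The small SD comes from averaging those 2 arrays before the replicates were compared.

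*odd* (CG3851), a zinc finger repressor, was at -0.17, -0.28 and -0.17 on the arrays of replicates 1, 2 and 3 and at -0.18 on the dye swap. Its mean of -0.21 ± 0.06 (SD, n = 3) had a limma adjusted p of 0.0078. Here too the probes gave unlike ratios, though their difference did not pass the test given below. The duplicate-spot probe was at -0.08 (limma adjusted p 0.24 over all probes) and the single-spot probe at -0.34 (0.0029). The gene's lower ratio came mainly from the single-spot probe on the arrays of one dye orientation. On the dye swap the order of the probes was the other way, at -0.29 for the duplicate-spot probe and -0.08 for the single-spot probe.

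The difference between the 2 probes of a gene was tested by the same fit over 2441 genes with 2 kept probes, of which 18.4% differed. For *odd* the duplicate-spot probe exceeded the single-spot probe by 0.26 (95% interval 0.07 to 0.45, limma adjusted p 0.069). For *run* the single-spot probe minus the duplicate-spot probe was -0.25 (95% interval -0.46 to -0.05, limma adjusted p 0.087). Neither passed, and for *ftz* (0.04, limma adjusted p 0.77) and *en* (0.08, 0.41) the probes lay closer. The array's identifiers name 1 transcript for the probes of each pair, and which transcripts each probe matches was not tested. Of the 14 member probes tested singly, 5 were lower, 1 higher and 8 did not pass, and 48.0% of all kept probes were called.

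*prd* (CG6716) encodes the founding Pax protein and acts late in the pair-rule cascade, activating *gsb*, *wg* and *en*. Its wild-type log2 signals were 8.42, 7.94, 7.61 and 8.19 in replicates 1, 2 and 3 and the dye swap. The mir-3 ectopic signals were 8.77, 8.31, 8.10 and 8.44. Each array thus gave the mir-3 ectopic embryos the higher *prd* signal, by 0.35, 0.38, 0.50 and 0.25. The mean ratio of 0.39 ± 0.10 (SD, n = 3), or 1.31-fold, had a limma adjusted p of 0.00086, and 13.4% of all genes tested had a larger absolute ratio. It rests on 1 probe printed in duplicate, whose 2 spots gave ratios 0.42 apart on the array of replicate 3 and 0.06 to 0.10 apart on the other 3. Over the 32 pairs of duplicate spots of the members, the median difference was 0.06.

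The sloppy-paired genes *slp1* (CG16738) and *slp2* (CG2939) are adjacent forkhead genes with partly overlapping roles. They keep *wg* on and *en* off in the posterior of the parasegment and later act in mesoderm and neuroblasts. *slp1* was at -0.01, -0.04 and 0.01 on the arrays of replicates 1, 2 and 3 and at -0.25 on the dye swap. *slp2* was at 0.11, 0.08 and 0.10 on the same 3 arrays and at -0.14 on the dye swap. The means were -0.05 ± 0.07 for *slp1*, with a 95% interval of -0.16 to 0.05, and 0.05 ± 0.06 for *slp2*, with one of -0.05 to 0.16 (SD, n = 3). Neither passed (limma adjusted p 0.36 and 0.37). For both paralogs the dye swap was the lowest of the 4 values.

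*opa* (CG1133), a zinc finger gene of the Zic family, acts with the other pair-rule factors across the trunk and is later needed in the visceral mesoderm of the midgut. Its wild-type log2 signals were 11.97, 12.26, 12.08 and 12.46 in replicates 1, 2 and 3 and the dye swap, and its mir-3 ectopic signals 11.99, 12.32, 12.14 and 12.12. The ratio was 0.01, 0.06 and 0.06 on the first 3 and -0.34 on the dye swap, the widest spread of any member. The mean was -0.01 ± 0.13 (SD, n = 3) with a 95% interval of -0.15 to 0.12 and did not pass (limma adjusted p 0.86).

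*en* (CG9015), the segment polarity gene that the pair-rule proteins switch on in stripes, was lower by a like amount on each array. The wild-type log2 signals of its duplicate-spot probe were 13.62, 13.58, 13.37 and 13.62 in replicates 1, 2 and 3 and the dye swap, and the mir-3 ectopic signals 13.44, 13.35, 13.17 and 13.43. Averaged over its 2 probes, the ratio was -0.19, -0.30, -0.25 and -0.21 on these arrays. The mean of -0.25 ± 0.05 (SD, n = 3), or 1.19-fold lower, had a limma adjusted p of 0.0032. Unlike those of *run* and *odd*, both *en* probes passed singly, at -0.21 (limma adjusted p 0.0077) and -0.29 (0.0029). Its adjacent paralog *inv* was at -0.23 ± 0.12 (SD, n = 3, limma adjusted p 0.011), with -0.02 on the dye swap. The gene on the other side of *en*, *tou*, was higher at 0.37 (limma adjusted p 0.0015). *hh*, the secreted signal made by *en* cells, was at -0.21 ± 0.07 (SD, n = 3, limma adjusted p 0.0090). Both *tou* and *hh* were named after their values were seen. *hh* is 1 of 19 measured segment polarity genes, of which 3 were higher and 6 lower.

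**Figure D2:**
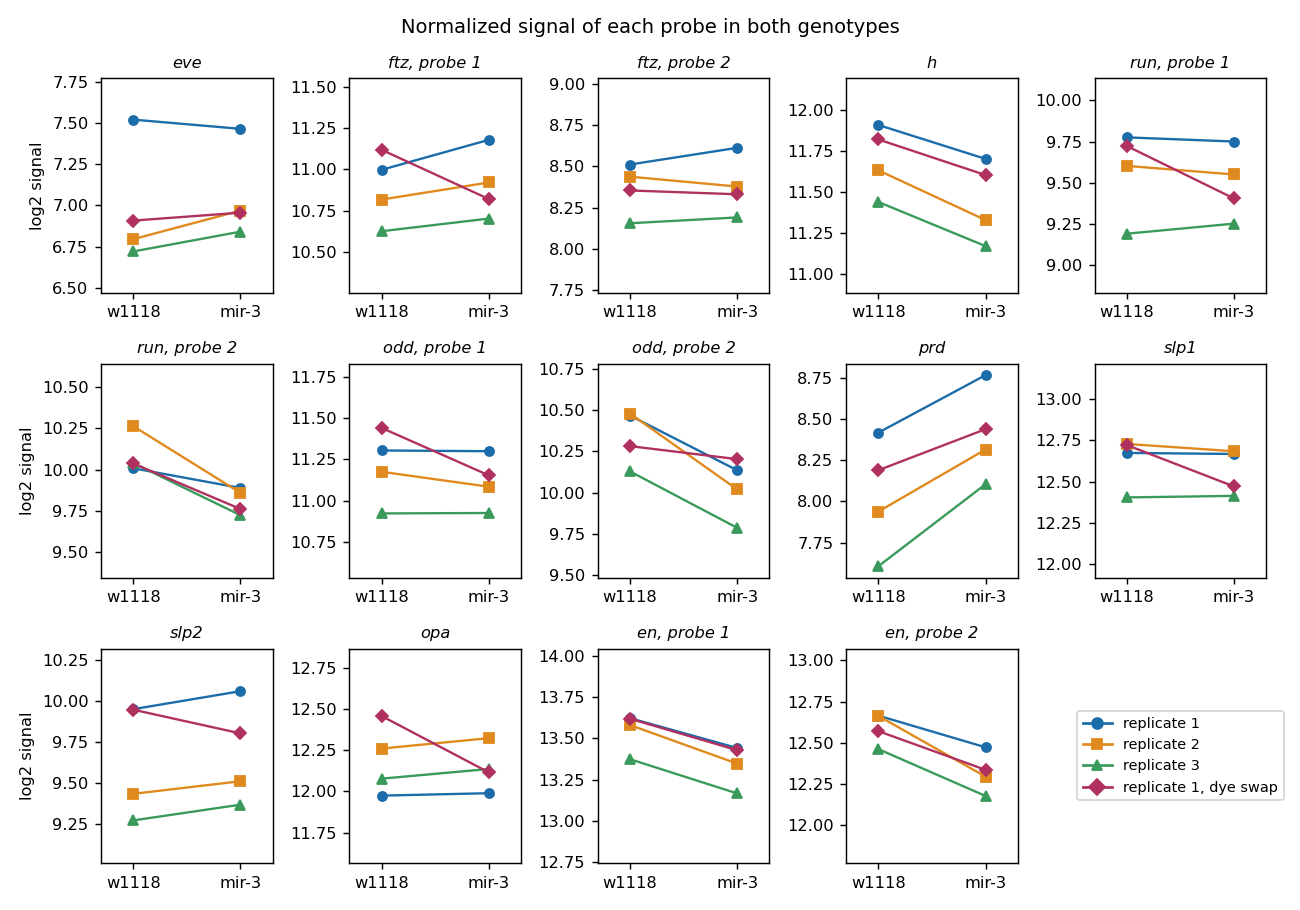
Normalized log2 signal (vertical axis, the same span in each panel) of the 14 member probes in wild-type w1118 and mir-3 ectopic embryos, with a line for each array joining its genotypes; where a gene has 2 probes, probe 1 is the one printed in duplicate. The lines of *h* and of both *en* probes fall and those of *prd* rise on all 4 arrays, while the lines of *opa*, *slp1*, *slp2* and probe 1 of *ftz* fall on the dye swap and are flat or rise on most others.

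The members stood differently on the dye-swap array. There 8 of 10 were below 0, all but *eve* and *prd*, and their median was -0.20, where 51.4% of all genes were below 0. On the arrays of replicates 1, 2 and 3 the medians were -0.03, -0.01 and 0.03, with 6, 5 and 4 members below 0 and 45.8%, 51.6% and 49.8% of all genes. Between the 2 arrays of replicate 1 the ratio moved by -0.36 for *opa*, -0.30 for *ftz*, -0.25 for *slp2*, -0.24 for *slp1* and -0.23 for *run*. For *h* it moved by -0.01, for *odd* by -0.02 and for *en* by -0.03. The small move of *odd* is an average of 2 probes that moved in opposite directions. Its duplicate-spot probe went from -0.005 to -0.29 on the dye swap, and its single-spot probe from -0.33 to -0.08. The member median of this move was -0.16, beside -0.04 over all genes and a median absolute move of 0.13.

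With the dye as a term of a fit on 4 arrays, which called 54.3% of genes, *h* (-0.24), *run* (-0.22), *odd* (-0.19) and *en* (-0.23) were still lower and *prd* (0.33) higher. *opa* (-0.15, limma adjusted p 0.0097) and *slp1* (-0.13, 0.016) then passed as lower too, which made 6 lower and 1 higher. *eve*, *ftz* and *slp2* still did not pass, at 0.06, -0.04 and -0.02. With a single array of the exchanged orientation, that fit leaves it no residual and takes its error from the other 3, so the *opa* and *slp1* calls rest on the dye swap.

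The calls depended on the normalization more than the ratios did. With median centring in place of loess 0 members passed by limma, at limma adjusted p from 0.89 to 1.0 for the 5 called above, with ratios of -0.28 for *h*, -0.25 for *en*, -0.24 for *odd*, -0.23 for *run* and 0.36 for *prd*. That setting left 24 genes higher and 58 lower over the whole array, where the loess values gave 3612 and 3633. With the scanner software's processed signals *prd* alone passed, at 0.46, and the 4 lower members were at -0.19 to -0.31 with limma adjusted p from 0.11 to 0.36. The call of *run* was lost without replicate 2 (-0.16, limma adjusted p 0.10) and with unpaired channels (-0.18, 0.14). That of *odd* was lost without replicate 2 (-0.17, 0.072) and for its brightest probe (-0.08, 0.23).

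**Figure D3:**
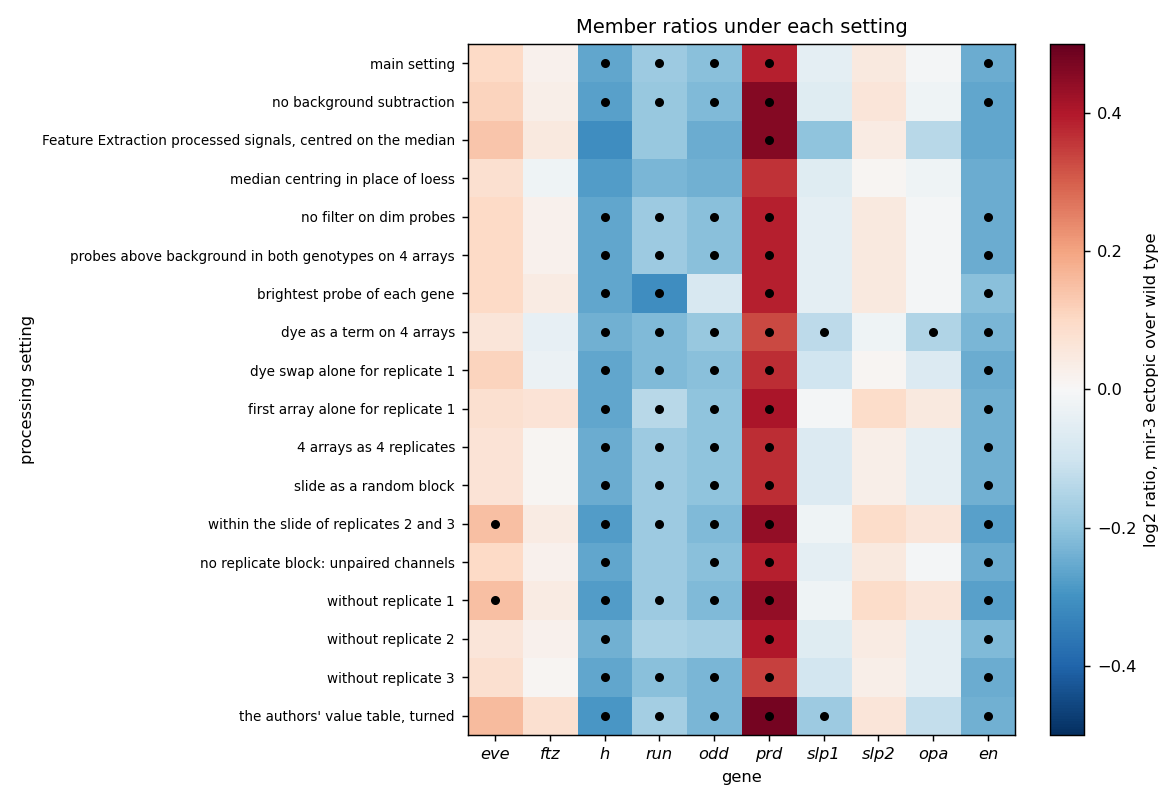
Log2 ratio of each member (columns; colour scale from blue for lower to red for higher in mir-3 ectopic embryos) under the main setting and 17 alternatives (rows), with a black dot where the limma adjusted p was under 0.05. The *h*, *en* and *prd* columns keep their colour in all rows and lose dots only with median centring or, for *h* and *en*, the processed signals. The rows within the slide of replicates 2 and 3 and without replicate 1 show the same fit.

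Among other segment polarity genes, which carry the pattern forward through Wingless and Hedgehog signalling, changes went both ways. Of 19 measured, 3 were higher and 6 lower, 10 did not pass, and the median was -0.05. The Hedgehog pathway genes *fu*, a kinase, and *cos*, a kinesin-like scaffold, were higher at 0.69 ± 0.07 and 0.50 ± 0.07, as was *dsh*, the Wingless pathway adaptor, at 0.65 ± 0.12 (SD, n = 3). The Hedgehog transcription factor *ci* was lower at -0.40 ± 0.12 (SD, n = 3). Their limma adjusted p ran from 4.1e-05 for *fu* to 0.0011 for *ci*. *wg*, the ligand gene bordering the *en* stripe and named after its values were seen, was at -0.09 ± 0.18 (SD, n = 3) and did not pass (limma adjusted p 0.31).

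Of 24 measured paralogs and partners of the members, 2 were higher and 5 lower, 17 did not pass, and the median was -0.04. The nuclear receptor gene *ftz-f1*, whose product binds DNA together with Ftz, was higher at 0.42 ± 0.11 (SD, n = 3, limma adjusted p 0.00077), while *ftz* itself did not pass. The *odd* relatives *bowl* and *drm* were lower at -0.24 ± 0.13 (limma adjusted p 0.012) and -0.14 ± 0.07 (0.041), and *sob*, the gene next to *odd*, was at -0.02 ± 0.05 (0.72; SD, n = 3). *Bgb*, the Big brother partner of Runt, was lower at -0.18 ± 0.09 (SD, n = 3, limma adjusted p 0.021). The paired-domain relative *gsb* was at -0.10 ± 0.04 (SD, n = 3) and did not pass (limma adjusted p 0.089), where *prd* was higher.

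Upstream, of 15 maternal and gap regulators 3 were higher and 2 lower, 10 did not pass, and the median was 0.01. The gap gene *Kr* was higher at 1.48 ± 0.04, the maternal gene *bcd* at 0.63 ± 0.08 and the posterior homeobox gene *cad* at 0.32 ± 0.04, and the head gene *btd* was lower at -0.63 ± 0.07 (SD, n = 3). Their limma adjusted p was at most 0.00084. The change in *Kr* was larger than that of any member, each of which was under 0.40 in size on this scale.

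Of the 18 genes directly beside a member in gene order that are not members themselves, 15 were measured. Of these, 4 were higher, 2 lower and 9 did not pass, beside 24.3% higher and 24.5% lower over all genes tested. The 2 genes flanking the sloppy-paired pair, CG3407 (0.42, limma adjusted p 0.00036) and *TTLL4B* (0.16, 0.043), were higher, while neither member passed. Also higher were *tou* beside *en* (0.37, limma adjusted p 0.0015) and CG1324 beside *run* (0.16, 0.029). Lower were *TER94* beside *eve* (-0.32, limma adjusted p 0.0014) and *inv* beside *en* (-0.23, 0.011). Apart from *inv*, these neighbours were named after their values were seen. The genes whose ratios on the 4 arrays lay closest to those of *prd*, by Euclidean distance, were the transcript RE38722 at a distance of 0.021, CG10013 at 0.041 and *ZIPIC* at 0.056. With 4 arrays, this likeness is a description only.

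Markers of cell types and stages moved beside these values, and their part in the member ratios was not tested. Of 13 mesoderm and heart markers 9 were lower and 1 higher, with *tin* at -0.73 and *Doc1*, *Doc3* and *Doc2* at -0.41, -0.40 and -0.30, and their summed normalized signal was 19454 to 27665 in mir-3 ectopic and 23740 to 33145 in wild-type channels. All 10 muscle differentiation markers were lower (*wupA* at -1.25, *Mhc* at -1.42, *Prm* at -1.21, *Mlc1* at -1.43), with sums of 37476 to 40245 against 43242 to 49551. Of 13 cuticle and Osiris markers 10 were lower and 0 higher (*Osi20* at -2.40, *Osi15* at -2.08, *Osi18* at -1.36, *Osi2* at -1.02), with sums of 4020 to 5218 against 6378 to 7791. Of 3 measured cellularization markers, *slam* (0.80) and *Sry-alpha* (0.53) were higher and *kuk* (-0.09) did not pass, with sums of 62173 to 71171 against 57472 to 65346.

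Markers of other tissues were measured too. Of 11 neural markers limma called 0 in either direction, 3 had an unadjusted p under 0.05, and with the dye as a term 1 was higher and 2 lower. The smallest p among them belonged to the neuroblast gene *wor* at -0.14, then to *scrt* at -0.12 and the neuronal *elav* at -0.12, with *nerfin-1* at 0.07. Their summed signal was 30248 to 39166 in mir-3 ectopic and 32704 to 40581 in wild-type channels. Of 7 epidermal markers 2 were higher (*pnt* at 0.37, *crb* at 0.15) and 1 lower (*grh* at -0.16), *sha* at 0.11 not passing, with sums of 14955 to 19610 against 14288 to 19911. Of 5 measured germ cell markers *pgc* was lower at -1.76 and *aub* higher at 0.26, and *vas* (-0.06) and *ovo* (-0.05) did not pass, with sums of 15072 to 17513 against 15254 to 18951. The epidermal marker *svb* is the same gene as *ovo*, so the same 2 probes were counted in both of those lists. A marker counts as measured only if a probe was well above background in at least 1 genotype on 3 or more arrays. Of the listed markers of cell types and stages, *nos*, *nullo*, *bnk*, *Osi3*, *Osi7* and *ple* were not measured.

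**Figure D4:**
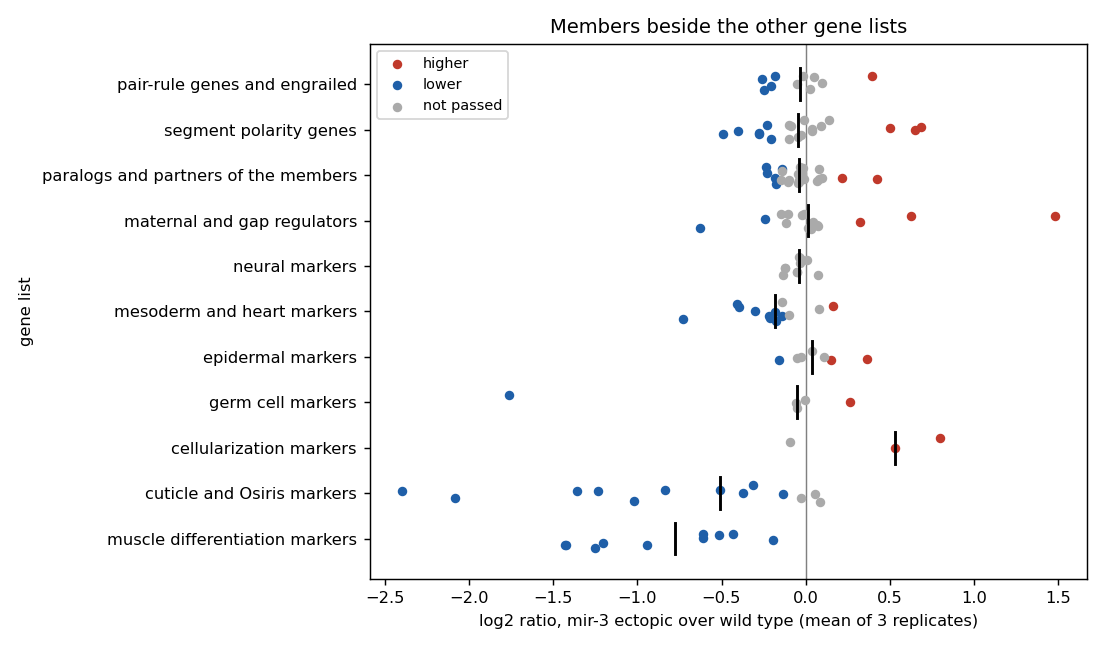
Mean log2 ratio of 3 replicates, mir-3 ectopic over wild-type signal (horizontal axis), for each measured gene of each list (rows), coloured by whether it was higher, lower or did not pass, with a black bar at the list's median. The members lie between -0.26 and 0.39, while the muscle differentiation list has its median at -0.78 and the cuticle and Osiris list at -0.51.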

How the data were processed

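Per the file headers, the authors extracted spot values with Agilent Feature Extraction 10.1.1.1 on a design of build BDGP5.4. The deposited scanner files hold spot intensity (median foreground and local background) and the authors' log10 ratios of processed Cy5 over Cy3 signal, which were not used. The authors' value table holds log2 ratios that equalled those of the deposited processed signals within 3.54e-06, with the dye swap turned. It was not centred (column medians -0.11, -0.07, 0.11 and -0.15).

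Background was corrected with normexp (offset 50), and ratios were normalized by loess within arrays in limma 3.58.1 (R 4.3.3, statmod 1.5.0). Spots with outlier flags (107 to 173 per array) were left out, and spots of a probe averaged. The 19734 probes well above background in 1 genotype on at least 3 of 4 arrays were kept, and a gene's probes averaged. The arrays of replicate 1 were averaged. The log2 ratios were tested as the report gives, by lmFit and eBayes, after a check on simulated data. Each array pairs the genotypes by replicate. Probe identifiers gave names through a RefSeq table (assembly Release 6 plus ISO1 MT), 19620 of 32162 matching. That table is of another build, so no coordinates are given, and sequences were not used here. The summed signals add the genes of each marker list, so bright genes weigh most in them. Apart from these sums, the choice of a gene's brightest probe and the setting of *eve* against array medians, signals of different probes were not compared as levels.

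The members and lists were chosen with earlier results of these data known. Named are all members, the 4 genes of each list with the smallest p, and *inv*, *sob*, *drm* and *gsb*. Alternatives were 17 changes of background correction, normalization, filter, probe choice, dye, slide and replicates. Among these, the fit within the slide of replicates 2 and 3 and the fit without replicate 1 are the same fit, counted under both names. The fit of the difference between probes was added after seeing the data.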

Additional observations from a re-analysis of the deposited data

Results flagged for a closer look

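Among the 4 arrays of each member, 3 members had 1 array set apart from the others relative to the range of their 4 values. For independent values of one kind, chance gives such a gap in about 1 in 20 groups. That rate does not hold here, because replicate 1 and the dye swap carried the same RNA with the dyes exchanged. The share of such gaps over all genes is not given, so the count of 3 is not a result about the members. *opa* was at -0.34 on the dye swap and at 0.01 to 0.06 on the other 3 arrays. *slp2* was at -0.14 on the dye swap and at 0.08 to 0.11 on the others. *odd* was at -0.28 in replicate 2 and at -0.17 to -0.18 on the others. That gap is small in size, and the means of the 2 *odd* probes lay further apart, at -0.08 and -0.34. In the first 2 of these the array that stood apart was the one with exchanged dyes.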

How the results depend on the processing

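Over 17 alternatives *ftz* and *slp2* passed in none, and *prd*, *h* and *en* kept their sign in all, the first at 0.33 to 0.48, the others at -0.31 to -0.24 and -0.27 to -0.21; *run* ran from -0.31 to -0.14 and *odd* from -0.25 to -0.08. Members called higher were 0 with median centring and 2 within the slide of replicates 2 and 3 (1 to 2 leaving out each replicate). The fit within that slide is the same as the one without replicate 1. Members called lower were 0 with processed signals or median centring, and 2 to 4 leaving out each replicate, with 2 without replicate 2. The member median was -0.17 with processed signals and -0.14 with the dye as a term or the authors' value table, where *slp1* passed as lower (-0.18, limma adjusted p 0.023). Genes called over the array were 2234 higher and 1927 lower with processed signals, 24 and 58 with median centring, 2229 and 2093 with the dye swap alone for replicate 1, and 2369 and 2070 with unpaired channels (no replicate block). Leaving out each replicate gave 2514 to 4008 higher and 2218 to 4241 lower. The cause was not tested. All member probes were above background on 4 of 4 arrays, and the number of arrays limits the precision.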
